A study of Mus musculus with 22 samples.

Results

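DNA methylation of the liver at embryonic stages E14.5 and E18.5 was compared in mouse fetuses that lack Rlf, by whole-genome bisulphite sequencing (WGBS), to ask whether the change between the stages that wild-type livers undergo also occurs in mutants, and at which loci it is missing or altered. The 4 mutant livers were the samples labelled as Rlf knockout liver at these stages, of 22 samples in the series. For each CpG the deposited files hold the number of reads in which the cytosine stayed unconverted (methylated) and the number in which it was converted. Reads were summed over 1 kb tiles of chromosomes 1 to 19, and a tile was kept where at least 8 CpGs were covered by at least 6 reads in each of the 4 mutant livers, which left 717578 of 2472334 tiles.

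Each stage had 2 mutant livers, and each was set beside 2 wild-type (Rlf+/+) livers of the same stage. The mutants were homozygous for MommeD28, an ENU-induced null allele of Rlf (MommeD28/MommeD28), and homozygotes die around birth. Every group was labelled as strain FVB (FVB/NJ mice of Line3), came from matings of heterozygotes and carried the homozygous multicopy GFP transgene of that line, which is driven by a human alpha-globin promoter with the HS-40 enhancer. At E14.5 replicate 1 of either genotype was male and replicate 2 female, and at E18.5 all livers were female, so sex was not the same at the 2 stages. Whole livers were used, so fewer cells of a type and a change of methylation within cells cannot be told apart in any result below. The paper describes the E18.5 livers as sequenced in a later round than the E14.5 livers, and at lower depth. Stage and sequencing round therefore cannot be told apart either. RNA counts of 3 E14.5 mutant liver libraries showed the albumin gene Alb at 14969, 17017 and 15076 RPKM (reads per kb of exon, scaled to the library's total count), and the erythroid gene Klf1 at 290, 276 and 279, so both main cell lineages of a fetal liver were present. The count of Rlf RNA does not check the genotype, since the mutant livers had 76.0, 79.4 and 67.5 CPM (counts scaled to the library's total) and the wild types 68.3, 74.8 and 68.5.

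Methyl groups on CpG cytosines are placed by DNMT3A and DNMT3B, copied at replication by DNMT1 together with UHRF1, and taken off through oxidation by the TET enzymes. Most of the mouse genome is methylated, whereas CpG-rich gene starts and active enhancers have low levels, and a gain of methylation at an enhancer usually goes with its loss of activity. The fetal liver is the main site of blood formation in mid-gestation and is then filled with erythroid cells, and towards birth blood formation moves to the bone marrow while hepatocytes mature. Rlf is a zinc finger protein that was found in a mutagenesis screen for modifiers of expression of the GFP transgene.

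The sequences below show the CpGs behind tiles among the largest losses (Scx, Arid4a) and the largest gains (St3gal6, Sbk1, Hoxa3) and behind the tile with the largest difference of the stage change between the genotypes among the 3 that passed the test of it (Wdr63). Each is 120 bases of the plus strand of NCBIM37 (mm9) around the CpG with the largest mutant change, and capitals mark the CpGs measured in all 4 mutant livers. The Scx window, chr15:76288186-76288305, lies in the coding part of the first exon. That of Arid4a is chr12:72149073-72149192 and lies in an intron. St3gal6 is shown at chr16:58519639-58519758, in an intron. The Sbk1 window is chr7:133435781-133435900, in a coding exon. Hoxa3 is shown at chr6:52144850-52144969 and Wdr63 at chr3:145747666-145747785, both in introns.
Scx: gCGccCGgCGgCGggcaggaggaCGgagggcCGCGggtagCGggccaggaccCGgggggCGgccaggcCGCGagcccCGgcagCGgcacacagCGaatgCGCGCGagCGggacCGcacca
Arid4a: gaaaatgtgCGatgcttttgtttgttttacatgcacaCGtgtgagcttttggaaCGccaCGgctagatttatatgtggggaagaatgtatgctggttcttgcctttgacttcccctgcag
St3gal6: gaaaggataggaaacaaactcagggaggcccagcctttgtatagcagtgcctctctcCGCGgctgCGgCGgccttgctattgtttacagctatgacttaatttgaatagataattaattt
Sbk1: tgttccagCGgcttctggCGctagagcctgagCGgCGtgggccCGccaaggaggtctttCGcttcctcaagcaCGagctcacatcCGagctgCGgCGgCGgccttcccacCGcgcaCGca
Hoxa3: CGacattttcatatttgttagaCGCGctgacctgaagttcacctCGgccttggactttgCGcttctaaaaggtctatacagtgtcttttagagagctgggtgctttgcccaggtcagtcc
Wdr63: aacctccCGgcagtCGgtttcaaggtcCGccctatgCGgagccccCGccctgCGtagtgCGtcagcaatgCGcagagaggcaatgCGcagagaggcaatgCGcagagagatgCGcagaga
The difference between the stages had the same direction at most CpGs of each tile, but its size varied along the tile. At chr15:76288525 in the Scx tile, mutants had 66.7% and 67.6% and then 66.7% in both livers. Methylation was lower at E18.5 at 67 of 70 CpGs of the Scx tile and at 11 of 12 of the Arid4a tile. It was higher at all 26 CpGs of the St3gal6 tile, all 71 of the Sbk1 tile and all 16 of the Hoxa3 tile, and in the Wdr63 tile it was lower at 14 of 15. At every CpG of the 3 gained tiles both E18.5 mutant livers lay above both E14.5 mutant livers. Both lay below at 59 of 70 CpGs of the Scx tile, 11 of 12 of the Arid4a tile and 11 of 15 of the Wdr63 tile. The CpG at the centre of the Hoxa3 window went from 12.98% to 76.0% in mutants and from 16.1% to 58.8% in wild types.

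The mutant livers had a mean of 32.2 and 33.4 reads per covered autosomal CpG at E14.5 and 18.2 and 18.47 at E18.5, and the wild types 36.1, 35.7, 18.1 and 17.8. Levels at E18.5 are therefore less precise. Between 0.0412% and 0.0590% of the cytosines of the unmethylated lambda spike-in stayed unconverted. Coverage of the X and Y chromosomes matched the labelled sex of all 8 livers.

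Mean methylation was higher at E18.5 in both mutant and wild-type livers, by an amount whose exact test cannot pass with 2 livers a stage. Of reads over autosomal CpGs with at least 6 reads in all 4 mutant livers, 60% and 58.9% were methylated in the E14.5 mutants. In the E18.5 mutants 65.2% and 61.2% were. The E18.5 livers lay above the E14.5 livers without overlap, and replicate 1 stood above the rest at E18.5. The mean was 59.5% ± 0.748 (SD, n = 2) at E14.5 and 63.2% ± 2.83 at E18.5, a change of 3.70 points (two-sided exact permutation p = 0.33, and 2 livers against 2 can give no smaller one). Without E18.5 replicate 1 the change was 1.70 points. The wild types differed by 4.11 points, from 57.2% ± 1.48 to 61.3% ± 0.221 (n = 2 each, exact p = 0.33).

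The gain was spread over most tiles. In mutants 87.9% of tiles were higher at E18.5, the median change was 5.16 points, and the lowest and highest deciles were bounded by -0.333 and 10.8 points. Both E18.5 livers lay above both E14.5 livers in 59.9% of tiles and below them in 3.96%. All 19 autosomes took part, with medians from 4.83 to 5.40 points. The distribution of the change was close to that of the wild types, whose median was 4.90 points. Livers of the same stage differed by a median of 2.49 points at E14.5 and 4.196 at E18.5, so single tiles near the median changed by little more than the spread between livers.

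**Figure D1:**
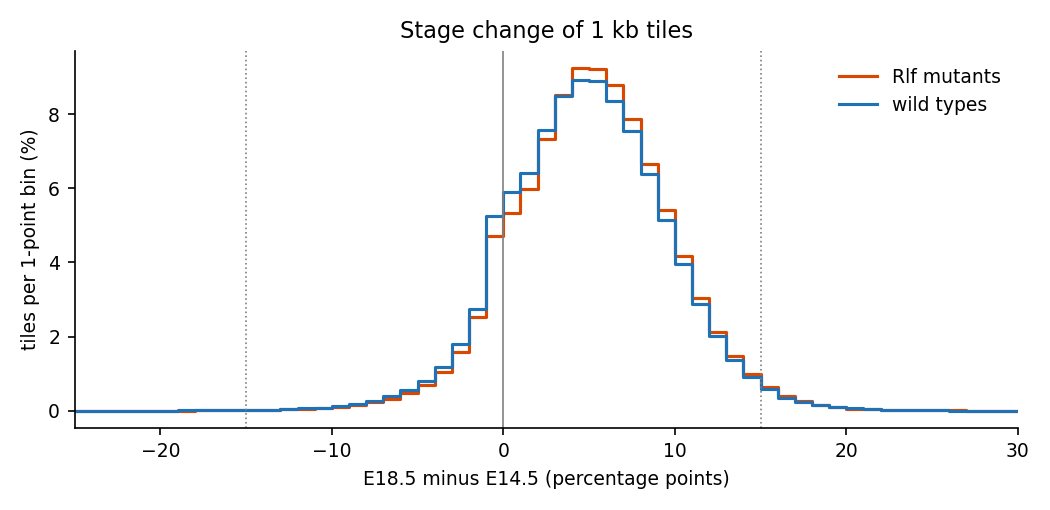
Share of tested 1 kb tiles (y axis, % per 1-point bin) by the change from E14.5 to E18.5 (x axis, percentage points, means of 2 livers a stage) in Rlf mutants and wild types. Both curves peak above 0, with medians of 5.16 and 4.90 points, and few tiles pass the dotted lines at 15 points.

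The difference of each tile was tested with edgeR's quasi-likelihood test on methylated and unmethylated reads, and a tile was called lost or gained where the Benjamini-Hochberg adjusted p was under 0.05 and the means of the stages differed by over 15 percentage points. In mutants 265 tiles (0.0369% of those tested) were lost and 11543 (1.61%) gained, together 1.65%, and 97.8% of the calls were gains. In wild types 392 tiles (0.0539%) were lost and 11597 (1.60%) gained, together 1.65%. The share of gains rests on the scale. With each library's log odds shifted so that tiles of intermediate level had the same median in all livers, 2680 mutant tiles (0.373%) were lost and 616 (0.0858%) gained, together 0.459%, so gains made up 18.7% of calls. This centring lowers the E18.5 livers against the E14.5 livers, so it enlarges losses and shrinks gains. All 265 lost tiles stayed lost under it, which is therefore no check of them, and 616 of the 11543 gained tiles stayed gained. The counts moved with each of the 4 livers: without E14.5 replicate 1 there were 12 lost and 147 gained tiles, without E14.5 replicate 2 12 and 88, without E18.5 replicate 1 849 and 9221, and without E18.5 replicate 2 371 and 45781. Limma on log ratios called no tile in mutants at the same threshold, with 186590 tiles at an unadjusted p under 0.05 (edgeR 224906), and 198 lost and 4888 gained tiles in wild types.

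The tiles called in wild-type livers had the same direction of difference in nearly all cases in the mutants. Of the tiles lost in wild types, 358 were measured in all 8 livers, and their mean level in mutants was 58.9% and 58.3% at E14.5 and 48.9% and 45.7% at E18.5. The mutant livers of the stages did not overlap, and the difference of -11.3 points had the smallest possible exact p (0.33). Methylation was lower in E18.5 mutants in 346 of the 358 tiles (96.6%), both E18.5 livers lay below both E14.5 livers in 301 (84.1%, against 3.96% of all tiles), and 90 (25.1%) were called lost in mutants, against 250 of all 672782 tiles. The wild-type livers that chose these tiles went from 57.3% and 58.6% to 39.7% and 39.4%.

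Of the tiles gained in wild types, 9772 were measured in all 8 livers. Their mean in mutants was 54.3% and 53.2% at E14.5 and 66.8% and 62.7% at E18.5, a difference of 11.0 points (exact p = 0.33). Again no livers of the stages overlapped. The same held for the mean of all 672782 tiles, which went in mutants from 64.7% and 63.9% to 71.2% and 67.6%. It rose by 5.11 points, so the lack of overlap and part of the 11.0 points were not particular to the gained tiles. Both E18.5 mutants lay above both E14.5 mutants in 8174 of the 9772 tiles (83.6%, against 59.97% of all tiles). The level was higher in E18.5 mutants in 9605 of the 9772 tiles (98.3%, against 87.8% of all tiles in the 8 livers), and 2021 (20.7%, against 1.54%) were called gained. The wild types that chose them went from 47.0% and 50.1% to 65.6% and 66.2%. The choice by a wild-type rise favours low E14.5 wild-type values, so no difference between the genotypes is read from these levels.

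Read from the other side, the 250 tiles lost in mutants and measured in all livers went in wild types from 51.7% and 52.9% to 39.2% and 38.6%, lower in 244 (97.6%), whereas 86.4% of all tiles were higher in wild types. The 10342 gained in mutants went in wild types from 48.7% and 51.8% to 60.8% and 61.3%, higher in 10201 (98.6%, against the same 86.4%). No tile called in one genotype was called in the opposite direction in the other.

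**Figure D2:**
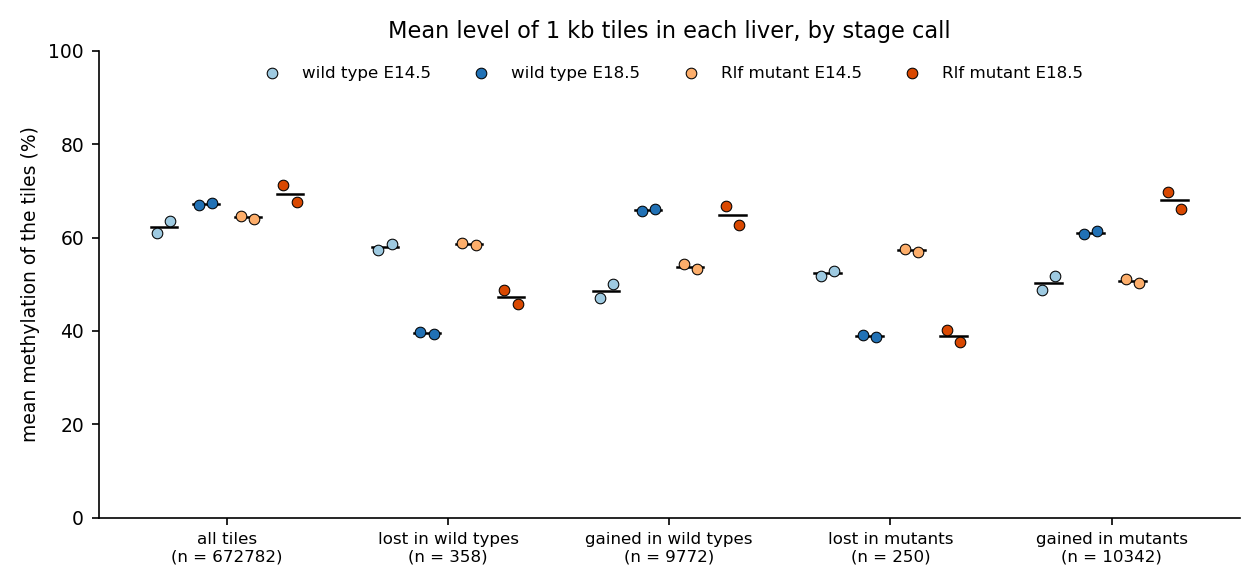
Mean methylation (y axis, %) of 1 kb tiles in each of the 8 livers (points, with the mean of 2 livers as a bar), for all tiles and for the tiles called lost or gained in either genotype. In the 358 tiles lost in wild types the mutants go from 58.9% and 58.3% to 48.9% and 45.7%, and in the 9772 gained they go from 54.3% and 53.2% to 66.8% and 62.7%.

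The mutant change followed the wild-type change in size too. In the 72 tiles that were lower by over 20 points at E18.5 in wild types the mutant median was -15.7 points, and in the 287 that were lower by 15 to 20 points it was -9.94. In the 179 tiles that were higher by over 25 points in wild types the mutant median was 21.5 points and 100% of them were higher at E18.5 in mutants. The 254635 tiles that were higher by 0 to 5 points had a mutant median of 4.24. At either end the mutant median was smaller than the wild-type median of the bin, and wild-type values chose the bins.

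**Figure D3:**
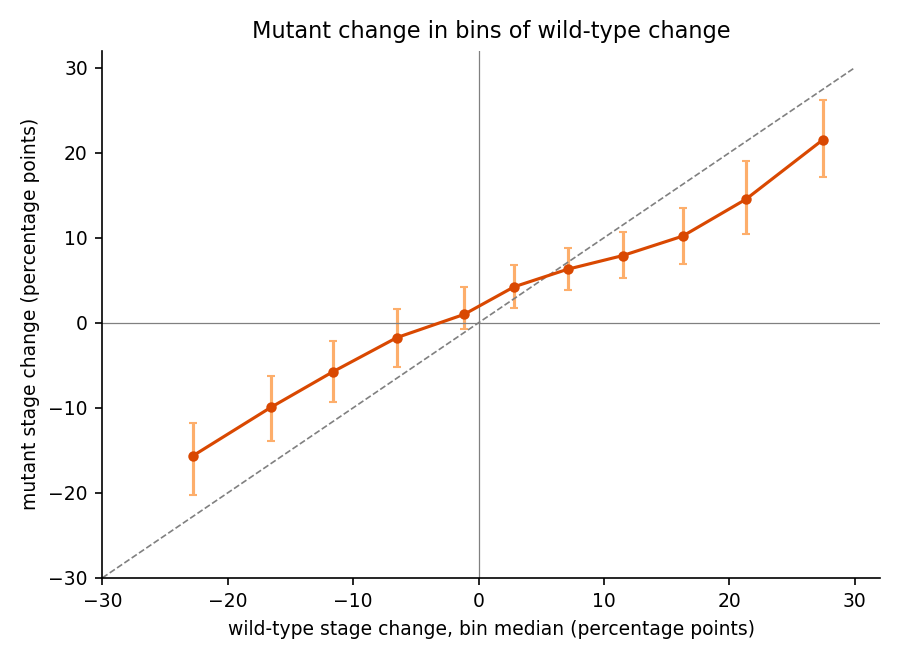
Median change from E14.5 to E18.5 in mutants (y axis, percentage points, bars from the lower to the upper quartile of tiles) in bins of the wild-type change (x axis, median of the bin), with a dashed line of equal change. The mutant median climbs from -15.7 to 21.5 points over the bins and is nearer to 0 than the line at both ends.

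Tiles of low and intermediate level behaved differently. Tiles under 5% in E14.5 wild types had a mutant median change of -0.0852 points, and 6 of 21528 were gained. The median was 0.502 points at levels of 5 to 20%, 4.80 at 20 to 40%, 6.68 at 40 to 60%, 5.56 at 60 to 80% and 2.95 above 80%. Gains were most frequent at 20 to 40%, where 6.87% of tiles were called. Between genes the median tile changed by 5.91 points and 1.87% were gained, in introns by 5.22 (1.69%), in other exonic tiles by 4.15 (1.02%) and within 1 kb of a gene start by 0.115 (0.819%). Losses had the reverse order at the ends, at 0.0225% of tiles between genes, 0.0431% in exons, 0.0479% in introns and 0.0651% at gene starts. The median lost tile had 13 CpGs, lay 25986 bp from the nearest gene start and went from 58.4% to 39.3%. The median gained tile had 10 CpGs, lay 41432 bp away and went from 54.6% to 71.6%.

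The largest loss was at Scx, which encodes the transcription factor scleraxis of tendon progenitors. Its tile at the gene start, chr15:76288001-76289000, held 70 CpGs and 2152 to 3165 reads a liver. Methylation was 67.7% and 60.6% in the E14.5 mutants and 28.6% and 35.0% in the E18.5 mutants, a fall of 32.3 points (edgeR adjusted p = 4e-07). The wild types fell by 17.9 points, from 63.2% and 53.6% to 41.9% and 39.0%, and the difference between the genotypes did not pass the test (edgeR adjusted p = 1 for genotype by stage).

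At the start of 2810055G20Rik, chr16:77329001-77330000 went from 37.8% and 39.0% to 10.2% and 4.77% in mutants (17 CpGs, change -30.9 points, edgeR adjusted p = 4.5e-09), and the 2 tiles beside it were lost as well. In an exonic tile of Arid4a, which encodes a retinoblastoma-binding chromatin protein, chr12:72149001-72150000 went from 59.0% and 68.3% to 38.8% and 28.3% (change -30.1 points, adjusted p = 5.2e-05), and in wild types from 66.4% in both livers to 30% and 28.9%. Mutant livers without overlap were a condition for naming these tiles. The wild-type livers of the stages stood clear of each other at both genes as well.

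In the other 7 of the 10 tiles with the largest losses methylation fell by 25.5 to 28.6 points. Of these, 3 lay between genes, with the nearest starts those of Auts2 at 598787 bp, Mgmt, which encodes a DNA repair enzyme, at 391294 bp and Gpr12 at 91186 bp, and the others in an exon of Prdm6 and in introns of Ccdc62, Atp9a and Plxnc1, which encodes a semaphorin receptor. The tile nearest to Mgmt, chr7:143694001-143695000, went from 41.4% and 38.9% to 7.69% and 16.1%. Atp9a had the widest spread, with 46.8% and 27.6% in the E18.5 mutants. Wild types fell at all 10 of these tiles, by 10.9 to 36.9 points. All 10 stayed lost after centring, which enlarges losses and so does not check them. Called tiles whose starts lay at most 3 kb apart were joined into runs, so a run can span tiles that were not called. Of 253 runs of lost tiles, 2 held 3 tiles or more: chr16:77329001-77332000 at 2810055G20Rik and chr1:93352001-93355000 at Per2, a gene of the circadian clock.

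The largest gain was in an intron of St3gal6, which encodes a sialyltransferase. Its tile, chr16:58519001-58520000, held 26 CpGs and 579 to 1010 reads a liver and went from 40.4% and 40.6% in the E14.5 mutants to 80.1% and 77.0% in the E18.5 mutants (change 38.0 points, edgeR adjusted p = 3e-09). The wild types rose by 33.4 points, from 30.9% and 36.3% to 68.7% and 65.4%.

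An exonic tile of Sbk1, which encodes a serine/threonine kinase, held 71 CpGs at chr7:133435001-133436000 and went from 47.2% and 46.4% to 85.7% and 83.0% (change 37.5 points, edgeR adjusted p = 1.9e-10). In wild types it went from 47.2% and 41.9% to 80.8% and 83.3%, also by 37.5 points. The genotypes were nearly superimposed at this tile at both stages.

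The tile near Fam46c, 57754 bp from the gene start at chr3:100351001-100352000, stood apart from these. It went from 25.5% and 17.3% to 64.4% and 49.2% in mutants (change 35.4 points, adjusted p = 0.0013), and in wild types from 22.9% and 27.6% to 32% and 40.3% (10.9 points, adjusted p = 0.096, which did not pass). The difference between these changes, 24.3 points, did not pass the test after adjustment (edgeR unadjusted p = 0.013, adjusted p = 1), and the tile had 8 CpGs and 59 to 192 reads.

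The remaining 7 of the 10 largest gains were between 34.8 and 33.0 points. In an exon of Vangl1, a planar cell polarity gene, 37 CpGs at chr3:101969001-101970000 went from 28.5% and 28.1% to 65.1% and 58.7%. Others lay between genes, with the nearest starts those of Slain2 at 14543 bp, Matr3 at 5812 bp and Gcnt1, which encodes a glycosyltransferase, at 33157 bp, and 3 lay in the Hoxa cluster. Wild types, measured at 9 of the 10 tiles, were higher at E18.5 at all 9, by 10.9 to 43.4 points. All 10 tiles stayed gained after centring.

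**Figure D4:**
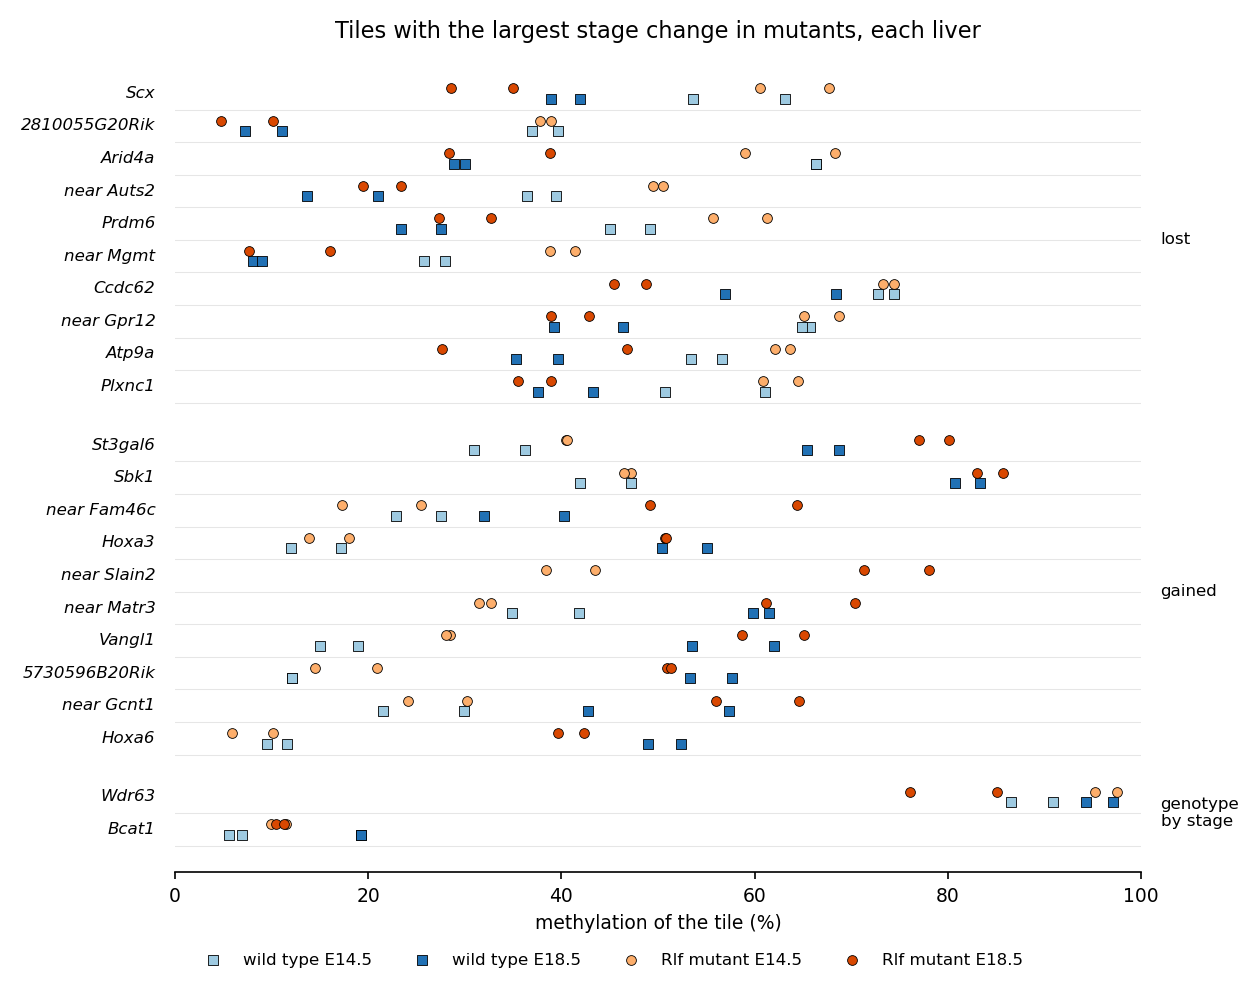
Methylation (x axis, %) in each of the 8 livers (circles mutant, squares wild type, pale E14.5, dark E18.5) at the 10 tiles with the largest loss and the 10 with the largest gain in mutants, and at the tiles in Wdr63 and Bcat1 named for genotype by stage. Tiles were named only where the mutant livers of the stages did not overlap, so pale and dark circles are apart in all 20. At the tiles of loss and gain the squares move between the stages in the same direction as the circles, but their levels differ from the circles at several tiles. No squares are shown at the tile near Slain2, where wild types were not measured.

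The Hoxa cluster held the longest runs of gained tiles. The Hox genes encode homeodomain transcription factors that set position along the body axis, and several Hoxa genes also act in blood stem and progenitor cells. Over the 11 genes of the cluster, chr6:52105366-52210874, 21 of 77 tiles (27.3%, against 1.61% of all tiles) were gained, and 14 stayed gained after centring. Both runs with 8 gained tiles in the genome were here, chr6:52128001-52141000 over 5730596B20Rik, Hoxa3 and Hoxa4 and chr6:52144001-52160000 over Hoxa3, Hoxa5 and Hoxa6. Both also spanned tiles that were not called or not tested. The mean over the cluster went from 9.10% and 8.19% to 17.0% in both livers in mutants and from 7.53% and 7.15% to 17.5% in both in wild types. In the tile of Hoxa3 of which the sequence is shown, chr6:52144001-52145000, mutants went from 18.1% and 13.9% to 50.7% and 50.8% (edgeR adjusted p = 3e-08). That tile lies in an intron of the Hoxa3 gene model, but its nearest gene start was that of Hoxa4, at 2249 bp. A tile over an exon of Hoxa6, chr6:52156001-52157000, went from 10.1% and 5.90% to 39.7% and 42.4%. At the other Hox clusters 1 of 115 tiles was gained at Hoxb, 0 of 74 at Hoxc and 1 of 70 at Hoxd by edgeR. The cluster was singled out after its values were seen.

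**Figure D5:**
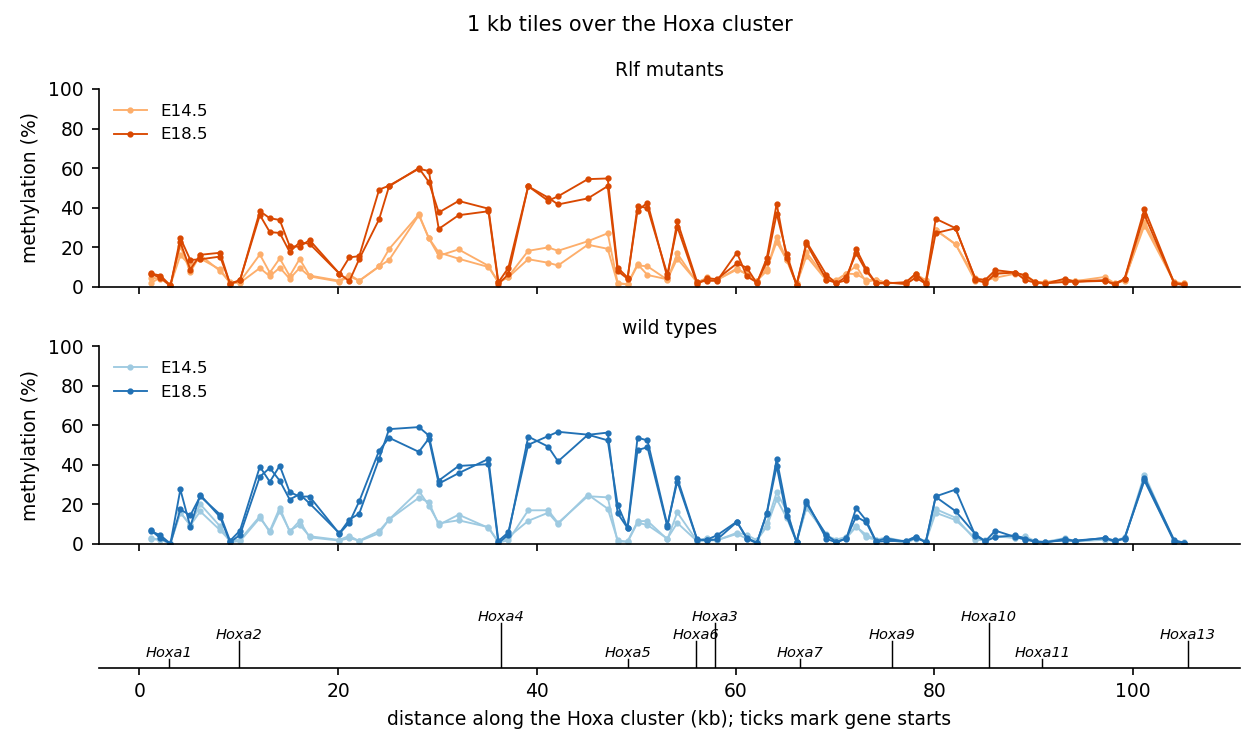
Methylation (y axis, %) of the 1 kb tiles along the Hoxa cluster (x axis, kb along the cluster), with 1 line per liver at E14.5 and at E18.5, in mutants and in wild types, with ticks at gene starts. In both genotypes the E18.5 lines lie above the E14.5 lines over the same stretches, to 50.7% and 50.8% in the mutant livers at the Hoxa3 tile.

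Other long runs lay at Zfpm1, Cd9 and Tjp3. Zfpm1, which encodes FOG1, the cofactor of GATA1 in erythroid cells and megakaryocytes, held a run of 7 gained tiles at chr8:124833001-124846000. Cd9, which encodes a membrane protein of platelets among other cells, held 5 at chr6:125418001-125426000, and Tjp3, which encodes a tight junction protein, held 4. Of 10966 runs of gained tiles 52 held 3 or more. These genes were also picked after their values were seen.

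Gene starts, taken as 1 kb to either side of the start, had smaller differences than other tiles. Of 21418 protein-coding genes 18796 could be tested, and 56.5% of the starts were under 10% methylated. The median start changed by -0.0529 points, with 5 starts lost (0.0266%) and 80 gained (0.426%) by edgeR, together 0.452%, and 34 lost and 6 gained after centring. Without E14.5 replicate 1 there were 2 lost and 8 gained starts, without E14.5 replicate 2 2 and 8, without E18.5 replicate 1 13 and 76, and without E18.5 replicate 2 6 and 338. Limma called none, with 4001 at an unadjusted p under 0.05 (edgeR 5253).

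The 5 lost starts were those of Scx, 2810055G20Rik, B3galt2, which encodes a galactosyltransferase, 9030617O03Rik and Mr1, which encodes the molecule that presents metabolites to MAIT cells. That of Mr1 went from 44.0% and 47.4% to 28.7% and 27.5% in mutants (change -17.6 points, edgeR adjusted p = 0.0035) and was 12.1 points lower at E18.5 in wild types as well, whose starts were tested for the difference between genotypes but not on their own. That of B3galt2 went from 56.4% and 55.3% to 34.1% and 37.8% (change -19.9 points, adjusted p = 0.0049). In wild types all 5 starts were lower at E18.5, the other 4 by 16.8 to 24.2 points.

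The 10 starts with the largest gain included those of Aplnr, Ermap, Lyve1, Itga2b and Rhd. The apelin receptor gene Aplnr, active in endothelium, went from 41.6% and 40.7% to 67.3% and 68.3% (change 26.7 points, edgeR adjusted p = 1.2e-06). Ermap, an erythroid membrane protein gene that carries the Scianna blood group, went from 18.1% and 13.96% to 47.1% and 36.3% (25.7 points, adjusted p = 3.1e-07). Lyve1, a gene of lymphatic and sinusoidal endothelium, went from 45.5% and 45.2% to 72.6% and 64.1% (23.0 points, adjusted p = 0.00017). Only starts whose mutant livers did not overlap between the stages were listed. At Aplnr, Ermap and Lyve1 the wild types were higher at E18.5 too, by 23.0, 20.2 and 14.1 points. Itga2b, which encodes the platelet integrin CD41, went from 40.96% and 39.5% to 62.5% and 61.7% (21.8 points, adjusted p = 0.00019). Rhd, the Rh blood group gene, went from 34.0% and 33.5% to 59.0% and 48.1% (19.8 points, adjusted p = 0.0015) and was not called after centring. The start of 4931440F15Rik had the smallest wild-type change of the 10, from 13.7% and 14.7% to 17.5% and 20.8%, against 28.3% and 29.3% to 47.6% and 48.6% in mutants, and the difference of 14.3 points did not pass the test (edgeR unadjusted p = 0.015, adjusted p = 1).

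In marker lists of the cells of a fetal liver, erythroid genes had a larger share of gained tiles than liver enzymes, but a smaller median change. The median erythroid tile changed by 2.55 points, that of late-gestation liver enzymes by 4.46, that of hepatocyte genes by 3.44 and that of all tiles by 5.16. In and within 5 kb of the erythroid genes 34 of 903 tiles were gained (3.77%, against 1.61% of all tiles), 12 of them at Zfpm1, and 9 (0.997%, against 0.0858%) after centring, when 3 (0.332%, against 0.373%) were lost. Megakaryocyte genes kept 2 gained tiles of 303 (0.660%) after centring and endothelial genes 2 of 328 (0.610%), and every other list had 0. Of 32 erythroid starts 3 were gained (Ermap, Rhd and Lmo2) and none lost, against 0.426% gained and 0.0266% lost of all starts. Lmo2, which encodes a bridging protein of the GATA1 and TAL1 complex, went from 18.3% and 18.4% to 34.1% and 33.9% (15.6 points, edgeR adjusted p = 0.0053). The adjusted p alone was passed by 681 of all 18796 starts upwards and 684 downwards. Of the erythroid starts 7 of 32 passed it upwards and 0 downwards. Upwards it was also passed by 3 of 8 endothelial, 2 of 10 megakaryocyte and 1 of 10 neutrophil starts. Smaller erythroid rises that passed it included those at Klf1, the erythroid master regulator, from 1.96% and 2.44% to 4.21% and 5.51%, at Epor, the erythropoietin receptor, and at Add2. The globin gene Hba-a1, at 21.7% and 22.3% and then 33.8% and 19.9%, did not pass (adjusted p = 0.39).

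In the hepatocyte list 6 of 592 tiles (1.01%) were gained, none was lost, and none of 29 starts was called, against 0.452% of all starts. Alb, the albumin gene, had 63.2% and 57.9% at E14.5 and 66.2% and 52.5% at E18.5 at its start, and its livers overlapped (edgeR adjusted p = 0.90). After centring 7 hepatocyte tiles (1.18%, against 0.373% of all tiles) were lost and 0 gained. In other lists losses after centring numbered 3 of 86 tiles (3.49%) for neutrophil, 4 of 303 (1.32%) for megakaryocyte and 1 of 98 (1.02%) for bile duct genes. They were 3 of 380 (0.789%) for DNA methylation enzymes, 2 of 307 (0.651%) for mesenchymal, 3 of 633 (0.474%) for stem and progenitor, 1 of 328 (0.305%) for endothelial and 1 of 436 (0.229%) for lymphoid genes, and 0 for macrophage genes and late-gestation liver enzymes. For late-gestation liver enzymes 1 of 414 tiles (0.242%) was gained, and of 17 starts 0 were called, with 1 at an adjusted p under 0.05, against 1365 of all 18796 starts: Ppara, the regulator of fatty acid oxidation, fell from 3.91% and 3.81% to 2.60% and 1.79% (adjusted p = 0.035). Tat, the tyrosine aminotransferase gene that comes on near birth, had 79.2% and 73.9% and then 85.5% and 81.2% (adjusted p = 0.083).

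Of the other lists, against 1.61% of all tiles gained, megakaryocyte genes had 7 gained tiles of 303 (2.31%), lymphoid genes 11 of 436 (2.52%), endothelial genes 8 of 328 (2.44%), neutrophil genes 2 of 86 (2.33%), mesenchymal genes 5 of 307 (1.63%), bile duct genes 1 of 98 (1.02%), macrophage genes 1 of 124 (0.806%) and stem and progenitor genes 5 of 633 (0.790%). The DNA methylation enzymes had 2 of 380 (0.526%). Of the tiles of all lists 1 was lost, at Itga2b, where methylation fell by 15.2 points (1 of 303 megakaryocyte tiles, against 0.0369% of all tiles). Starts were gained at Itga2b (1 of 10 megakaryocyte starts), Lyve1 (1 of 8 endothelial) and Mpo, the neutrophil myeloperoxidase gene (1 of 10), against 0.426% of all starts. That of Mpo went from 46.5% and 35.5% to 62.5% and 54.0% in mutants (17.2 points, edgeR adjusted p = 0.045), while wild types had 43.1% and 46.2% and then 42.7% and 40%, and the difference did not pass after adjustment (unadjusted p = 0.022, adjusted p = 1). Among 9 genes of the methylation machinery no start was called, and 1 passed the adjusted p, against 1365 of all 18796. That of Dnmt3b, a de novo methyltransferase gene, fell from 5.87% and 4.49% to 3.14% and 2.78% (adjusted p = 0.034), and Dnmt1 and Dnmt3a were at 3.11% to 8.29% in all 4 mutant livers without passing the test.

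Genes with a called start, in either direction, mostly had low RNA in the E14.5 mutant liver. The 80 genes with a gained start had a median of 0.0925 RPKM over 3 mutant RNA libraries, and 28 of them (35.0%) were above 1. The genes whose start was not called had a median of 2.12, and 56.8% were above 1. Of all tested starts 56.5% were under 10% methylated. The genes were not matched for the methylation level of their start, so level and change cannot be told apart in this comparison. The 5 genes with a lost start had a median of 0.240 RPKM, and 1 of them was above 1. The exceptions included the erythroid genes, with 298, 276 and 285 RPKM for Rhd, 179, 143 and 171 for Ermap and 132, 131 and 127 for Lmo2. Mpo had 93.3, 93.1 and 80.5, Lyve1 34.8, 35.0 and 42.7, and Itga2b 18.8, 17.0 and 20.1. After centring the 6 genes with a gained start had a median of 14.7 RPKM and 5 were above 1, and the 34 with a lost start had a median of 1.02 RPKM. The RNA libraries of the series were all from E14.5 livers, so RNA at E18.5 could not be examined.

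The change between stages differed between the genotypes, with an adjusted p under 0.05 and over 15 points, at 1 of 672782 tiles measured in all 8 livers (0.000149%), tested in edgeR as the interaction of genotype and stage. This tile lies in an intron of Wdr63, which encodes an axonemal dynein component of cilia, at chr3:145747001-145748000, 23094 bp from the gene start. It had 13 CpGs in common to all livers. Methylation fell in mutants from 95.2% and 97.5% to 76.1% and 85.0%, and in wild types went from 90.8% and 86.5% to 97.1% and 94.3%, a difference of -22.8 points (edgeR adjusted p = 0.0068). The stages moved in opposite directions with no overlap in either genotype. The call was lost in limma (adjusted p = 0.18), after centring (0.11), without mutant E14.5 replicate 2 (0.15) and without either wild-type E14.5 liver (0.058 and 0.58), where the difference was between -20.6 and -24.9 points. Its central CpG rested on 9 to 21 reads in the mutants.

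Another 2 tiles passed the adjusted p with less than 15 points, and in both the wild types rose while the difference in mutants did not pass. An exonic tile of Bcat1, which encodes the cytosolic aminotransferase of branched-chain amino acids, held 53 CpGs at chr6:144997001-144998000. Mutants had 11.6% and 9.98% at E14.5 and 10.505% and 11.3% at E18.5, and wild types went from 6.92% and 5.56% to 19.2% in both livers (difference -12.9 points, edgeR adjusted p = 0.0092). The tile nearest to Gsta4, a glutathione transferase gene, at 15773 bp from its start, chr9:78023001-78024000, had 1.75% and 3.29% and then 1.55% and 1.68% in mutants, and 1.197% and 0.897% and then 3.83% and 3.85% in wild types (difference -3.69 points, adjusted p = 0.0092).

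No other tile passed after adjustment, which does not show that the changes were equal. The difference between the genotypes had -5.38 and 6.002 points as the bounds of its lowest and highest deciles. It was over 15 points in 2394 (0.356%), and at an unadjusted p under 0.05 in 21637 (3.22%). With one liver left out between 0 and 6 tiles were called: 3 without mutant E14.5 replicate 1, 6 and 5 without mutant E18.5 replicate 1 and 2, 0 without either wild-type E14.5 liver, and 2 and 4 without wild-type E18.5 replicate 1 and 2. At gene starts 0 of 18653 differed by edgeR, with 769 (4.12%) at an unadjusted p under 0.05 and 0.266 as the smallest adjusted p, and 0 by limma, with 827.

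Loci at which a large wild-type change was small in mutants could be listed but not separated from the spread. Of 1231 tiles called in wild types with over 20 points, 71 differed by under 5 points in that direction in mutants, 12 of them the opposite way, and none differed by the test of genotype and stage. These 71 tiles mix rises with falls in wild types, the falls at Phc2 and Igsf6 among them. Over all 71 the mean went in wild types from 48.0% and 50.9% to 68.6% and 68.9% and in mutants from 59.5% and 57.9% to 63.2% and 58.5%. In 56 of the 71 both E14.5 mutants lay above both E14.5 wild types, against 229724 of all 672782 tiles. Most were chosen by a large wild-type rise, which itself favours low E14.5 wild-type values, so nothing is read from this count. Between genes, 455583 bp from the nearest gene start, that of Runx1t1, chr4:13214001-13215000 had 36.1% and 35.1% and then 40.2% and 40.4% in mutants, and 23.9% and 30.04% and then 54.7% and 55.7% in wild types (edgeR unadjusted p = 6.9e-05, adjusted p = 0.94). At the start of Gm10071, chr3:58791001-58792000, mutants were between 72.2% and 76.8% and wild types went from 45.01% and 45.1% to 70.4% and 62.3%. These examples were chosen after their values were seen.

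The reverse list was of like length. Of 1234 tiles called in mutants with over 20 points, 62 differed by under 5 points in that direction in wild types. In 26 of the 62 both E14.5 mutants lay below both E14.5 wild types, against 42592 of all 672782 tiles, with the same limit. Between genes, 34753 bp from the start of Tcf7l1, a transcription factor of Wnt signalling, chr6:72774001-72775000 went from 52.7% and 56.1% to 75.9% and 83.5% in mutants and had 58.0% and 60.1% and then 58.1% and 59.3% in wild types (edgeR unadjusted p = 7.5e-05, adjusted p = 0.94). This example was also chosen after its values were seen.

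Binding motifs of blood and liver factors were counted in the tiles, as exact letters on both strands. The GATA motif AGATAAG was held by 18.8% of gained, 11.7% of lost and 11.97% of all tiles, and after centring by 27.4% of gained and 13.02% of lost tiles. The FOXA motif TGTTTAC was held by 23.0% of lost, 11.5% of gained and 13.6% of all tiles, and after centring by 20.6% of lost and 12.8% of gained tiles. GATA factors act in blood and FOXA factors in hepatocytes. The RUNX motif TGTGGTT was in 24.5% of lost, 24.8% of gained and 21.3% of all tiles, and after centring in 23.3% of lost and 29.2% of gained tiles. Of the CACCC box CCACACC the shares were 16.6%, 21.9% and 20.7%, of the HNF4A motif CAAAGTC 17.4%, 15.2% and 14.95%, of the CEBP motif TTGCNNCAA 8.68%, 9.04% and 8.46%, and of the HNF1 motif 0%, 0.0693% and 0.0654%. After centring the shares of lost and gained tiles were 19.2% and 21.3% for the CACCC box, 17.2% and 16.1% for HNF4A, 9.14% and 8.28% for CEBP, and 0.261% and 0% for HNF1. Mean GC content was 46.1% in lost, 46.0% in gained and 46.6% in all tiles. A match is a run of letters and not a measured site.

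The GFP transgene differed little between the stages. Its CpGs were at 24.1% and 25.4% in the E14.5 mutants and 25.99% and 24.9% in the E18.5 mutants, and at 12.5% and 12.3% and then 10.3% and 10.49% in wild types, so the mutants were above the wild types at both stages.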

How the data were processed

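Whole fetal livers were sequenced by WGBS, 2 per genotype and stage. The authors bisulphite-converted the DNA, aligned read pairs with Bismark and Bowtie2 to mm9 with FVB substitutions, removed PCR duplicates and merged strands, and deposited counts of unconverted and converted cytosines and the methylated percent per CpG. RNA files hold raw counts per gene that the authors made with TopHat and HTSeq. Percents were recomputed here from the deposited counts. Reads of CpGs with at least 6 reads in every liver compared were summed over 1 kb tiles and gene starts with at least 8 such CpGs, and tested with edgeR 4.0.16 (quasi-likelihood, library intercepts, dispersion from 20000 rows, Benjamini-Hochberg). Limma 3.58.1 with a pseudocount of 1, thinning, a replicate block, leaving out livers and centring (tiles of 20 to 80%, chosen after seeing the data) were alternatives. The tests were also run on simulated data without a liver-wide shift, which cannot check them under a rise over most tiles. Gene models were GENCODE vM1. Named tiles were the 10 largest called losses and gains without overlap, 1 per gene, and likewise starts; tiles called in wild types and for genotype by stage were to be named as missing, and there were none. Members, lists, motifs and tests were chosen with earlier results of these data known. Livers are labelled as separate samples, E14.5 livers being littermates, so p-values concern these fetuses only. The edgeR p-values set a tile mostly against a spread between livers pooled over tiles, not against the spread at that tile. The prior degrees of freedom were 45.45 in the mutant tile fit and infinite in the wild-type tile fit. Columns left out were the deposited percents. The 4 E10.5 samples were not used here.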

Additional observations from a re-analysis of the deposited data

Results flagged for a closer look

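The difference between the genotypes in the stage change passed the edgeR test at 3 tiles: -22.8 points in the intron of Wdr63, -12.9 points in the exon of Bcat1 and -3.69 points near Gsta4. All are given with each liver's values above, and no explanation was tested.

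The CpGs of the GFP transgene, which lies outside the tiles tested, had a mean of 24.8% ± 0.930 (SD, n = 2) in E14.5 mutants and 25.5% ± 0.761 in E18.5 mutants, above the wild types at 12.4% ± 0.178 and 10.4% ± 0.141. The difference between the stages was 0.686 points in mutants and -2.03 points in wild types, with no overlap between the genotypes at either stage.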

How the results depend on the processing

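The replicate numbers showed no sign of pairing livers. Deviations of same-numbered livers correlated over 672782 tiles at 0.0044 in mutants and 0.0129 in wild types. With 2 livers a stage this rests on 1 contrast of replicates per stage, so it cannot exclude a pairing. With a replicate block 279 tiles were lost and 12232 gained in mutants, 394 and 11650 in wild types, 1 tile differed by genotype and stage, and 5 starts were lost and 84 gained, so no call count moved by over 1.5 times.

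Counts of lost and gained tiles in mutants depended on the threshold, the test and the scale, and centring turned the balance of the calls from gains to losses, at tiles and at gene starts. The Wdr63 difference, the difference in mean mutant methylation and the mutant difference at tiles called in wild types kept their sign in every alternative run on them. Centring was run on the Wdr63 difference but not on the other differences. With over 20 points required the lost and gained tiles in mutants were 59 and 1345, with limma 0 and 0 and after centring 2680 and 616. Gained tiles numbered 7611 of 551185 tested with at least 10 reads a CpG and 4144 of 459013 with 500 bp tiles, against 11543 of 717578. In wild types 560163 and 465589 tiles were tested in these alternatives, against 726814. Leaving out 1 liver gave 12 to 849 lost and 88 to 45781 gained. In wild types the counts were 83 and 1373 above 20 points, 198 and 4888 with limma and 2936 and 813 after centring, with 7237 gained at 10 reads and 6341 in 500 bp tiles, and 350 to 490 lost and 4852 to 32729 gained with 1 liver left out. Tiles that differed by genotype and stage numbered 0 with 10 reads, with E14.5 counts thinned, with limma and after centring, 2 without the male livers and 0 to 6 with 1 liver left out. The Wdr63 tile had too few CpGs to be tested with 10 reads or after thinning, and elsewhere its difference was between -18.3 and -27.3 points. Starts were 2 lost and 7 gained above 20 points, 22 gained within 500 bp of the start, 0 and 0 with limma, 34 and 6 after centring, and 2 to 13 lost and 8 to 338 gained with 1 liver left out. No start differed by genotype and stage in any alternative. At tiles called in wild types with over 15 points, where the mutant difference was -11.3 for lost and 11.0 for gained, it was -12.9 to -9.74 and 8.99 to 13.03 with 1 liver left out, and at those called with over 20 points it was -16.1 and 15.7 in all livers. The difference in mean mutant methylation was 1.70 to 5.70 points with 1 liver left out. The causes of these shifts were not tested. With 2 livers a stage, no single value can reach an exact p under 0.33, and the E18.5 livers had fewer reads per CpG than the E14.5 livers. A lone liver left in a stage is assumed to vary like the other stage.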
